A study of Mus musculus with 32 samples.

Results

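The genes described here encode the AP2 adaptor and its partners in clathrin endocytosis, and were read on Illumina MouseRef-8 v2.0 arrays from the frontal cortex (FCtx) of 32 female mice. Of the 10 genes listed (Ap2a1, Ap2a2, Ap2b1, Ap2m1, Ap2s1, Cltc, Clta, Cltb, Dnm1 and Amph), 9 had a probe under that symbol in a table of 18138 gene symbols, and Cltc, the clathrin heavy chain, is not analysed here. These 9 genes were covered by 19 probes, each a stretch of 50 bases read by many beads. The mice were F1 hybrids of C57BL/6J and FVB/NJ. The 20 ethanol-treated mice had free choice between water and 20% ethanol during limited sessions in the dark phase for 20 days, and the 12 controls received no ethanol. Intake was voluntary, so the dose was set by each mouse. The sample labels name 1 direction of the cross, whereas the Methods describe crosses in both directions.

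Every mouse was read on 1 array. There were 4 chips of 8 arrays, and the positions A, C, E and G of a chip are called odd below and the rest even. Chips 1 and 2 carried only mice of the ethanol group and chip 4 only controls, whereas on chip 3 the 4 odd positions held ethanol-treated mice and the 4 even positions held controls. The genes were selected when their ethanol differences on these same arrays were already known. Their ethanol differences are therefore a description, with no p-value printed for any of them, and counts of their calls in that contrast stand only beside the share over all probes and support nothing. Comparisons that hold treatment constant (odd against even positions, chip against chip) were not used in the selection and are tested. Because odd position and ethanol coincide on chip 3, odd against even is still not fully independent of that selection.

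AP2 is a heterotetramer of an α and a β large subunit, a medium μ subunit and a small σ subunit. It binds phosphoinositides and the sorting motifs of membrane cargo, and it recruits clathrin, whose heavy and light chains polymerize into the coat of a budding vesicle. Amphiphysin binds AP2, clathrin and curved membrane and brings dynamin to the vesicle neck, which dynamin cuts. In neurons this route retrieves synaptic vesicle membrane after release and internalizes receptors from the postsynaptic surface.

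Probes of 1 gene gave unequal values, so the first 30 bases of the relevant probes are shown, 5′ to 3′. For Ap2b1, the β subunit on chromosome 11, capitals mark the bases that 1 probe shares with another probe of the set within these windows.

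Ap2b1 ILMN_3147944: ctccttagccaaagtgtgcgtctgtcgaaa
Ap2b1 ILMN_2655488: cgataacgcagatgaattactagagagttt
Ap2b1 ILMN_1259631: gacagtccttcatcccgtcatcagtgcctg
Ap2b1 ILMN_1252951: tGACAGACTTTGCCATCCAGTTTAACAAGA
Ap2b1 ILMN_2711007: GACAGACTTTGCCATCCAGTTTAACAAGAa

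The probes ILMN_1252951 and ILMN_2711007 share 49 of their 50 bases, with a shift of 1 base. In the Ap2b1 transcript record, ILMN_2655488 starts at base 1541, ILMN_1259631 at base 2200, ILMN_2711007 at base 2456 and ILMN_3147944 at base 5151, so ILMN_3147944 reads the part farthest toward the 3′ end. The 3 probes of Ap2s1, the σ subunit on chromosome 7, are shown next, because they read separate parts of 1 transcript and gave unequal differences. They start at bases 227, 400 and 570.

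Ap2s1 ILMN_2762255: ctaccgacgctacgctggcctctacttctg
Ap2s1 ILMN_1212941: agatgttcctggcaggagagatccgagaga
Ap2s1 ILMN_2911283: tcccttcctcagctggcccagaggaaggac

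The remaining AP2 probes that the results name are those of Ap2a1 and Ap2a2, the α subunits, both on chromosome 7, and of Amph on chromosome 13. Of these, the Amph probes ILMN_1245012 and ILMN_2728607 share 47 bases, marked in capitals, with a shift of 3 bases.

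Ap2a2 ILMN_1237891: agactgagctgtatggggtcatctgtacgt
Ap2a1 ILMN_3143246: taaccctgcgcaccagcaaagagcctgtct
Ap2a1 ILMN_2604688: accctgagaactttgtgggtgctggaatca
Amph ILMN_2842843: cgcattgctcttatttgtcggcattacagc
Amph ILMN_1245012: tgaAACTGAGCAGGCTCTACCTACAGAGCC
Amph ILMN_2728607: AACTGAGCAGGCTCTACCTACAGAGCCcca

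Between 9480 and 11544 probes per array were detected, with a detection p-value below 0.01 against the negative control beads. The array of control mouse C66 on chip 4 had the fewest detected probes and the lowest median signal. The median signal of undetected probes lay between 149 and 183 in ethanol-treated mice and between 138 and 166 in controls. Values below are on the log2 scale after variance stabilization and quantile normalization, unless a deposited signal is named, and no probe's level is set against that of another. Of the 19 probes, 14 (of 8 genes) were detected on at least 24 of the 32 arrays and entered the fits over all 10187 such probes. The other 5 probes, among them the 1 probe of Dnm1, were not tested. No tested probe fell short of 29 arrays. The glutamatergic marker Slc17a7 and the GABAergic marker Gad1 were detected on all 32 arrays, whereas the probes of the neuronal genes Snap25 and Neurod6 were detected on 0 arrays.

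Ap2b1 had the largest difference of the set, at 1 probe. By ILMN_3147944 the deposited signal ranged from 549.7 to 1343 with a median of 768 in ethanol-treated mice, and from 654 to 1895 with a median of 988 in controls. The lowest control signal, 654, was that of mouse C66, whose normalized value was 10.56. Normalized values averaged 9.57 ± 0.31 (SD, n = 20) with ethanol and 10.17 ± 0.31 (SD, n = 12) without. The difference of -0.60 (standard error 0.10) is a level 1.52-fold higher in controls, and 19 of 20 ethanol-treated mice lay below the control median. The groups overlapped, since the highest ethanol-treated mouse reached 10.12 and the lowest control 9.69. As the tissue is bulk cortex, fewer expressing cells and less RNA per cell cannot be told apart.

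The other Ap2b1 probes did not carry this difference. By ILMN_1252951, ILMN_1259631 and ILMN_2711007 the ethanol differences were -0.05, -0.04 and -0.04, with standard errors of 0.03, 0.04 and 0.03. These probes had median deposited signals of 222, 220 and 231, close above the level of undetected probes, and ILMN_2655488 was detected on 0 of 32 arrays. Before normalization the medians of the first 3 were higher with ethanol, 228, 228 and 234 against 206, 208 and 219 in controls. With normexp background correction, which subtracts a background estimate, the 3 differences were -0.13, -0.12 and -0.11, and that of ILMN_3147944 was -0.695. Although ILMN_1252951 and ILMN_2711007 share nearly all bases, their values correlated over the 32 arrays with r = 0.21, and with r = 0.08 after centring within each treatment and chip. ILMN_3147944 had centred correlations of 0.01, 0.02 and -0.09 with ILMN_1252951, ILMN_1259631 and ILMN_2711007, all over 32 arrays that share normalization, and no test is given. The part of the low signal in this disagreement was not tested.

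**Figure D1:**
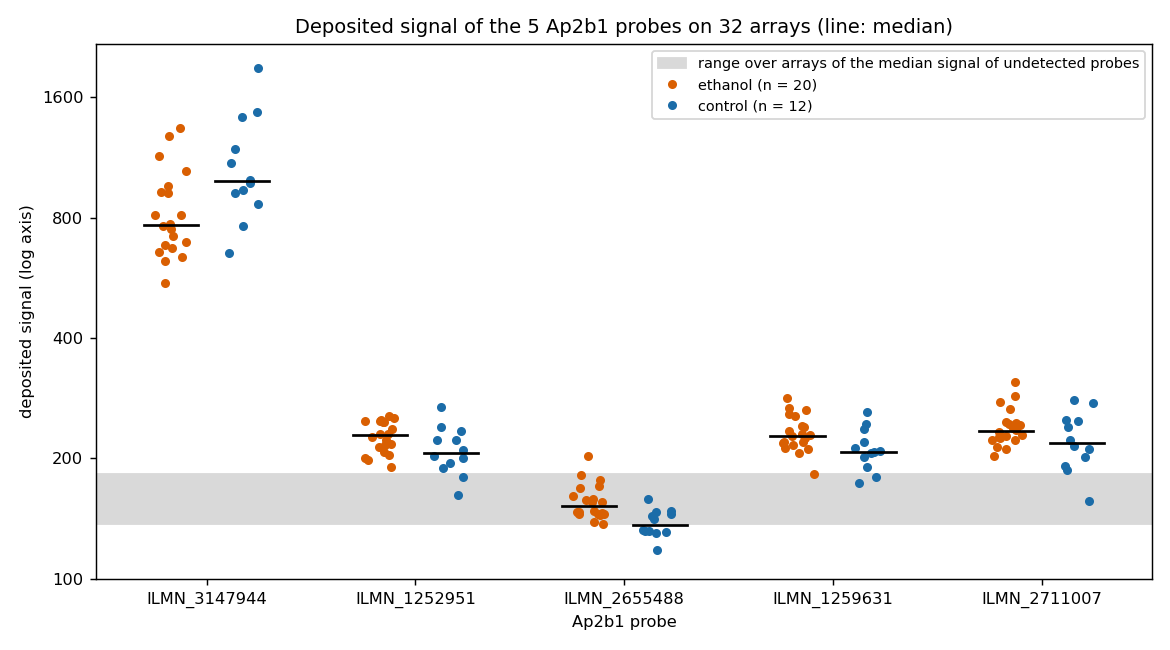
Deposited signal (log axis) of the 5 Ap2b1 probes on the 32 arrays, with ethanol-treated mice (n = 20) and controls (n = 12) as points, the group median as a line and the range over arrays of the median undetected signal in grey. ILMN_3147944 has medians of 768 and 988, and the other probes lie near or inside the grey band.

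On chip 3, where both groups were present, ILMN_3147944 of Ap2b1 read 10.09, 9.71, 9.75 and 9.69 in the 4 ethanol-treated mice and 9.83, 10.17, 10.38 and 10.70 in the 4 controls. The means differed by -0.46 (standard error 0.14), and the highest ethanol-treated mouse, A46, lay above the lowest control. Leaving out each of the 8 arrays in turn gave differences between -0.61 and -0.32. Between chips 1 and 2 and chip 4 the difference was -0.61, which became -0.73 at odd and -0.50 at even positions. Ethanol-treated mice at the odd positions of chip 3 read 0.41 higher than those at the odd positions of chips 1 and 2 (standard error 0.13, adjusted p = 0.3 by limma), and controls at the even positions of chip 3 read 0.15 higher than those of chip 4 (standard error 0.15, adjusted p = 0.615 by limma).

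The α subunits were also lower in ethanol-treated mice, and differed in where. Ap2a2, by ILMN_1237891, ranged from 10.01 to 10.62 with a median of 10.31 in ethanol-treated mice and from 10.19 to 10.84 with a median of 10.62 in controls. The means were 10.33 ± 0.17 (SD, n = 20) and 10.60 ± 0.17 (SD, n = 12), a difference of -0.27 (standard error 0.06), and 19 of 20 ethanol-treated mice lay below the control median. On chip 3 the 4 ethanol-treated mice read 10.30, 10.38, 10.23 and 10.36 and the 4 controls 10.59, 10.66, 10.61 and 10.84, so the groups did not overlap. The difference was -0.36 on chip 3, -0.26 between chips 1 and 2 and chip 4 at odd positions, and -0.21 at even positions. Ap2a2 had the same direction in each of these subsets, as ILMN_3147944 of Ap2b1 did. The subsets are parts of the contrast on which the genes were chosen, so this is a description and supports nothing. Within them treatment coincides with position on chip 3 and with chip elsewhere.

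Ap2a1, the other α subunit, had means of 9.76 ± 0.14 (SD, n = 20) and 9.93 ± 0.18 (SD, n = 12) with ILMN_3143246 over all arrays, and of 9.18 ± 0.16 and 9.32 ± 0.16 with ILMN_2604688. These are differences of -0.16 and -0.14. Before normalization both probes had a higher median signal in ethanol-treated mice, 935 against 871 for the first and 605 against 550.1 for the second, so their direction is that of the normalized values. With median scaling the differences were -0.13 and -0.10. On chip 3 the first probe read 9.53, 9.70, 9.59 and 9.82 in ethanol-treated mice and 10.09, 10.08, 10.14 and 10.05 in controls, a difference of -0.43 (standard error 0.07). The second probe read 8.96, 9.05, 9.02 and 9.18 against 9.34, 9.55, 9.50 and 9.43, a difference of -0.40 (standard error 0.07). With either probe the chip 3 groups did not overlap. Between chips 1 and 2 and chip 4 the differences were -0.06 and -0.03. The 2 Ap2a1 probes, which read different stretches, had a centred correlation of 0.70 over the 32 arrays, the highest among pairs of tested probes of the set.

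Ap2m1, the μ subunit on chromosome 16 that binds tyrosine motifs of cargo, was the 1 AP2 subunit with a higher mean in ethanol-treated mice. It averaged 11.58 ± 0.10 (SD, n = 20) against 11.50 ± 0.07 (SD, n = 12), with ranges of 11.40 to 11.75 and 11.40 to 11.60, and the difference of 0.08 had a standard error of 0.04. The groups overlapped, and 9 of 20 ethanol-treated mice lay above the highest control. On chip 3 the difference was -0.04, and between chips 1 and 2 and chip 4 it was 0.12.

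The σ subunit Ap2s1 gave unequal differences by probe. ILMN_2762255 had means of 12.07 ± 0.13 (SD, n = 20) with ethanol and 12.23 ± 0.16 (SD, n = 12) without, a difference of -0.16 (standard error 0.05), and 19 of 20 ethanol-treated mice lay below the control median. The differences were -0.08 for ILMN_1212941 and -0.05 for ILMN_2911283. Before normalization both of these had a higher median signal with ethanol, 2665 against 2591 and 413 against 387. That of ILMN_2762255 was lower with ethanol, 4547 against 4594. On chip 3, ILMN_2762255 read 11.95, 12.01, 12.15 and 11.95 in ethanol-treated mice and 12.28, 12.25, 12.38 and 12.33 in controls, a difference of -0.29 (standard error 0.06) with no overlap. The same probe is the one that differed most between odd and even positions, as described below.

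The clathrin light chains, which regulate the coat's assembly and bind the heavy chain, differed little. By ILMN_3106203, the means of Clta (chromosome 4) were 11.51 ± 0.12 (SD, n = 20) with ethanol and 11.55 ± 0.09 (SD, n = 12) without, a difference of -0.04 (standard error 0.04). Its other probe, ILMN_1218950, was detected on 6 of 32 arrays. By ILMN_2791059, those of Cltb (chromosome 13) were 9.31 ± 0.10 and 9.34 ± 0.08, a difference of -0.03 (standard error 0.04). For both genes the groups overlapped, with 4 of 20 ethanol-treated mice below the lowest control. Before normalization the median signals of these tested probes were higher with ethanol, 3126 against 2827 for Clta and 677 against 616 for Cltb.

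Dnm1, the neuronal dynamin on chromosome 2, was read near background. Its probe ILMN_2722984 had deposited signals from 183 to 298 with a median of 225 in ethanol-treated mice and from 147 to 217 with a median of 179 in controls. It was detected in 17 of 20 ethanol-treated mice and in 3 of 12 controls. The normalized means were 7.92 ± 0.12 (SD, n = 20) and 7.78 ± 0.08 (SD, n = 12), a difference of 0.14, which was 0.08 on chip 3 and 0.15 between chips 1 and 2 and chip 4. A probe that the table lists under the symbol Dnm, ILMN_1214326, shares 49 of 50 bases with it and was found after the values were seen. It was detected in 18 of 20 ethanol-treated mice and in 6 of 12 controls and differed by 0.10, with a correlation of 0.51 to the Dnm1 probe over 32 arrays. That correlation was not centred within treatment and chip, so the group difference of both probes enters it. Detection of the Dnm probe, like that of the Dnm1 probe, was mostly in ethanol-treated mice. Its values are therefore not read as support for the Dnm1 difference. Median signals of undetected probes were also higher on the arrays of ethanol-treated mice than on those of controls, by the ranges given above, and their part in the Dnm1 difference was not tested.

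Amph had 1 bright probe. With ILMN_2842843 the mean was 10.87 ± 0.17 (SD, n = 20) with ethanol and 10.82 ± 0.14 (SD, n = 12) without, a difference of 0.05 (standard error 0.06). On chip 3 the difference was -0.15, and between chips 1 and 2 and chip 4 it was 0.13, so its direction depended on the chips compared. ILMN_1245012 was detected on 8 arrays and ILMN_2728607 on 9.

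Of the 14 tested probes, 2 were lower in ethanol-treated mice at an FDR below 1% by limma (ILMN_3147944 of Ap2b1 and ILMN_1237891 of Ap2a2) and 0 were higher, where 4.67% of all 10187 probes were lower. On chip 3 alone, 4 of the 14 were lower (both Ap2a1 probes, Ap2a2 and ILMN_2762255 of Ap2s1), where 1.69% of all probes were. On chip 3, 6 of the 14 had all ethanol-treated mice below all controls, as did 7.58% of all probes. Since the genes were chosen on this contrast, nothing is read from these shares. The median difference of the 14 probes was -0.05, against -0.003 over all tested probes, and 12 of the 14 were below 0, as were 51.6% of all. When chip was fitted as a fixed block, so that chip 3 alone carried the contrast, the called probe was ILMN_3143246 of Ap2a1 instead, and with position added, 0 of the 14 were called. In that last fit the differences were -0.25 for Ap2a2, -0.33 and -0.30 for the Ap2a1 probes and -0.32 for ILMN_3147944 of Ap2b1.

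**Figure D2:**
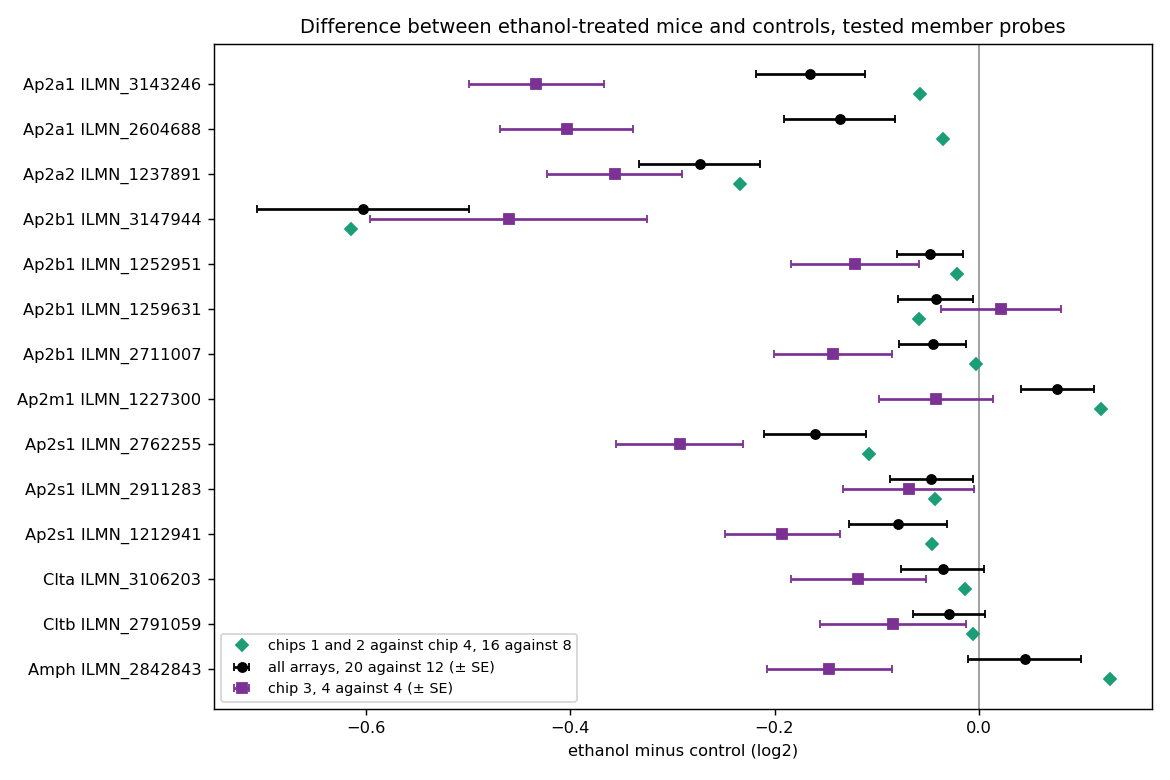
Ethanol minus control difference (log2) of the 14 tested probes over all arrays (black circles, ± SE), on chip 3 alone (squares, ± SE) and between chips 1 and 2 and chip 4 (diamonds). ILMN_3147944 of Ap2b1 and Ap2a2 are lower in all 3, whereas the Ap2a1 probes reach -0.43 and -0.40 on chip 3 and lie near 0 between the other chips.

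Position on the chip was examined next, because on chip 3 all ethanol-treated mice were at odd and all controls at even positions. On all chips the mice at even positions had the higher numbers, so position and mouse order cannot be told apart in what follows. Chips 1, 2 and 4 held 12 arrays at odd and 12 at even positions, with treatment constant within a chip. ILMN_2762255 of Ap2s1 ranged from 11.91 to 12.13 with a median of 11.997 at odd positions and from 12.02 to 12.41 with a median of 12.24 at even positions. It was lower at odd positions by 0.24 on the log2 scale (standard error 0.04, adjusted p = 0.000482 by limma with chip as a block). Among controls of chip 4 alone the odd positions averaged 12.03 ± 0.09 (SD, n = 4) and the even positions 12.35 ± 0.05 (SD, n = 4), with no overlap. On chip 3, where odd and ethanol coincide, the difference of this probe was -0.29, and position and treatment cannot be told apart there. In a fit over all arrays with chip and position as terms, the ethanol difference of this probe was -0.05.

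Amph also differed by position. ILMN_2842843 ranged from 10.60 to 10.85 with a median of 10.73 at odd positions and from 10.69 to 11.26 with a median of 10.94 at even positions. It was lower at odd positions by 0.21 (standard error 0.05, adjusted p = 0.00618 by limma). These 2 of 14 probes passed an FDR of 1%, where 1.9% of all 10187 probes were lower at odd positions. Of the remaining probes, Clta (ILMN_3106203) fell at odd positions by 0.14 (adjusted p = 0.022 by limma) and ILMN_1212941 of Ap2s1 by 0.13 (adjusted p = 0.07 by limma), which pass an FDR of 10% only. The other 10 probes had differences between -0.14 and 0.02 that did not pass an FDR of 10%. Of these, ILMN_3147944 of Ap2b1 differed by -0.14 (standard error 0.11, adjusted p = 0.411 by limma), Ap2a2 by -0.11 (standard error 0.07, adjusted p = 0.309 by limma), and the Ap2a1 probes by -0.10 each (standard errors 0.04 and 0.06, adjusted p = 0.125 and 0.233 by limma).

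These calls were lost under another scaling. With median scaling of each array in place of quantile normalization, ILMN_2762255 of Ap2s1 differed by -0.14 (adjusted p = 0.267 by limma) and Amph by -0.12 (adjusted p = 0.515 by limma), and 0 of the 14 probes passed. Marker levels are given beside these differences. The score of 4 olfactory bulb markers (Doc2g, Th, Trh, Sp8), a mean of scaled values, ranged from -1.49 to 2.18 with a median of 0.47 at odd positions and from -1.60 to 0.84 with a median of -0.42 at even positions, and 0 of the 4 passed an FDR of 1%. The score of 5 astrocyte markers ranged from -0.34 to 1.20 with a median of 0.13 at odd positions and from -1.43 to 1.04 with a median of -0.39 at even positions, and 1 of the 5 was higher at odd positions by limma at that FDR. Of the neuronal, oligodendrocyte, microglial and endothelial markers, 0 passed. Their part in the differences of Ap2s1 and Amph was not tested.

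**Figure D3:**
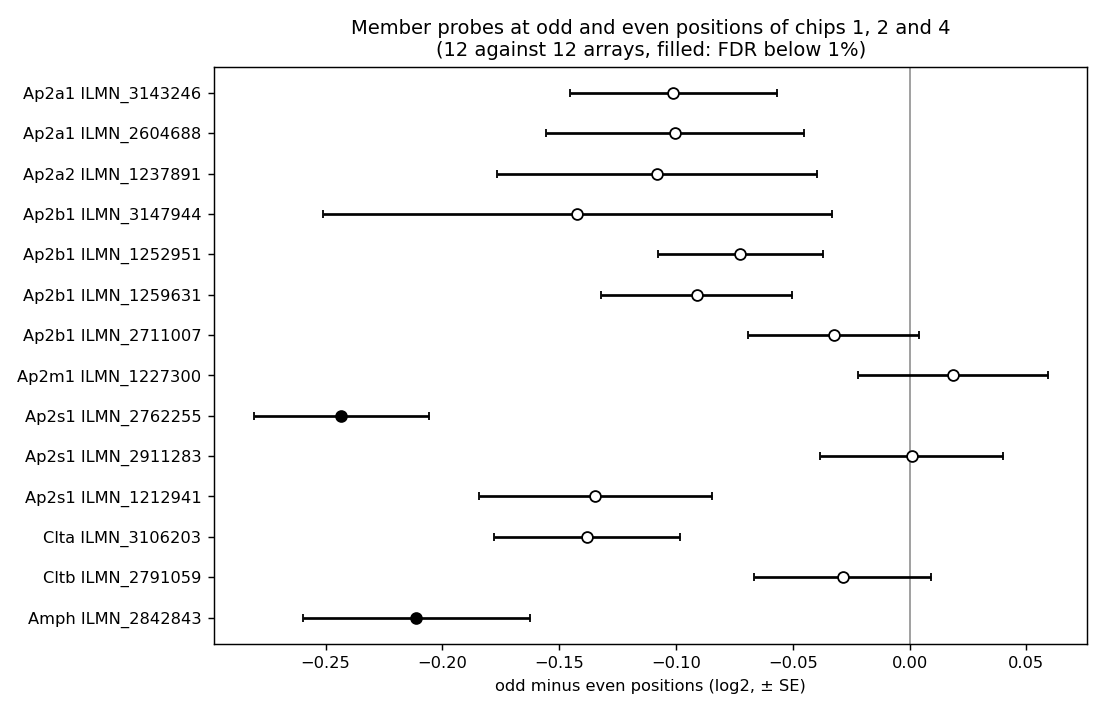
Odd minus even difference (log2, ± SE) of the 14 tested probes on chips 1, 2 and 4 (12 against 12 arrays), with filled points for an FDR below 1%. ILMN_2762255 of Ap2s1 (-0.24) and ILMN_2842843 of Amph (-0.21) are filled.

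Chips of the same treatment were compared as well. Between chips 1 and 2, 0 of the 14 probes passed an FDR of 1% by limma, where 0.00982% of all probes did. The nearest were ILMN_2911283 of Ap2s1, higher on chip 1 by 0.20 (standard error 0.05, adjusted p = 0.0573 by limma), and ILMN_3143246 of Ap2a1, higher by 0.18 (standard error 0.05, adjusted p = 0.083 by limma). The Ap2a1 value is larger in size than the ethanol difference of that probe over all arrays. Between controls of chips 3 and 4 at even positions, 0 of 14 passed, where 1.58% of all probes did, with differences from -0.07 to 0.16 and a smallest adjusted p of 0.188 by limma. Between ethanol-treated mice of chip 3 and of chips 1 and 2 at odd positions, 0 of 14 passed, where 0% of all probes did, with differences from -0.12 to 0.41.

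**Figure D4:**
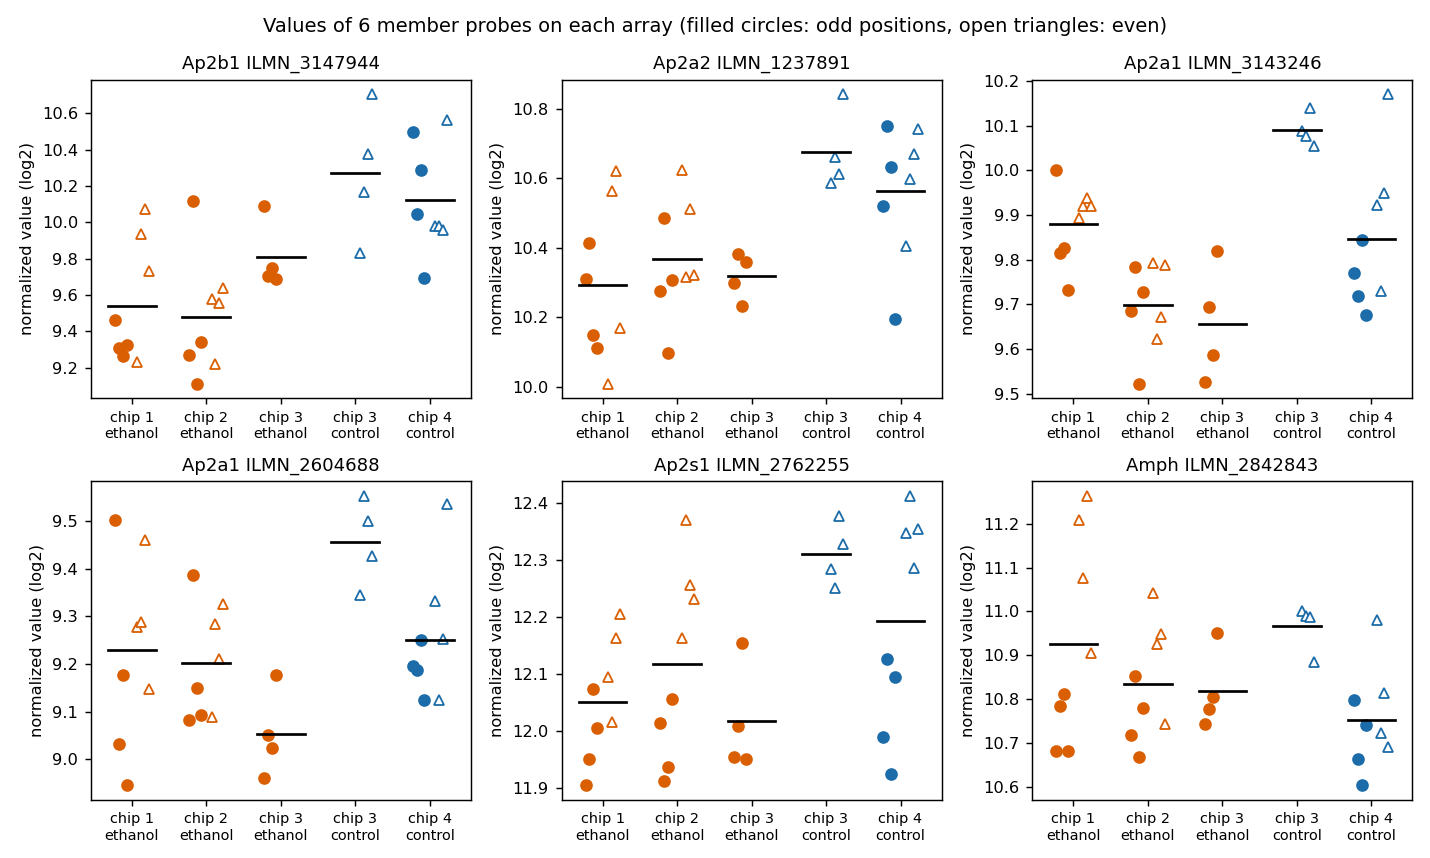
Normalized value (log2) of 6 probes on each of the 32 arrays by chip and group, with filled circles for odd and open triangles for even positions and a line at each mean. For ILMN_2762255 of Ap2s1 the even positions of chip 4 lie above its odd positions, as the controls of chip 3 lie above its ethanol-treated mice.

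Within groups, the AP2 probes did not vary as a unit. After centring within each treatment and chip, the 81 pairs of tested probes of different genes had correlations from -0.36 to 0.64 with a median of 0.17 over 32 arrays that share normalization. The highest was between Ap2a2 and ILMN_3147944 of Ap2b1 (0.64). Ap2a1 had correlations of 0.40 and 0.46 with that Ap2b1 probe, and Ap2m1 had one of -0.23. Among all tested genes, taken by their brightest probe, the 5 most like ILMN_3147944 of Ap2b1 over the centred 32 arrays were Ubqln4 (r = 0.85), Pigt (r = 0.85), C230078M08Rik (r = 0.84), Timp2 (r = 0.84) and 2310067B10Rik (r = 0.82). Each of these was itself lower in ethanol-treated mice, by 0.30, 0.44, 0.33, 0.25 and 0.18 (adjusted p = 0.0011, 0.000145, 0.00147, 0.00473 and 0.0064 by limma). Of all 7926 genes, 5.8% had a probe lower at an FDR below 1%. As the 5 were picked for likeness to a probe chosen on its ethanol difference, their falls lend that difference no support.

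Other genes of the route were compared in 4 lists. The lists were drawn up from general knowledge, but with earlier results of these data known. From these same arrays the paper had placed Bin1 and Hspa8 in modules containing alcohol-upregulated genes. The adjusted p-values of listed genes in the ethanol contrast are therefore a description and not independent tests. Of 54 listed genes, 42 had a tested probe, and by limma at an FDR below 1%, 6 had a higher and 3 a lower probe in ethanol-treated mice, where 4.1% and 5.8% of all 7926 genes did. Over the brightest probe of each of the 42 genes the median difference was 0.04.

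Among 20 tested genes of coat assembly and cargo sorting, 3 were higher and 2 lower. Epn2, an epsin that binds ubiquitinated cargo and bends membrane, rose by 0.17 (10.28 ± 0.10 against 10.10 ± 0.10, adjusted p = 0.00125 by limma), and the rise was 0.27 within chip 3 and 0.13 for chips 1 and 2 over chip 4. This was the brightest of its 5 tested probes, and the others did not pass, with differences of 0.14 (adjusted p = 0.0102 by limma), 0.07, 0.02 and 0.01, of which the second was -0.05 on chip 3. Its relative Epn1 fell by 0.16 (7.88 ± 0.10 against 8.05 ± 0.12, adjusted p = 0.00378 by limma), and 19 of 20 ethanol-treated mice lay below the control median. The Epn1 probe was close to background, with median deposited signals of 215 and 223 and detection in 16 of 20 ethanol-treated mice, and with normexp the difference was -0.42. Arrb2, the arrestin that links activated receptors to AP2 and clathrin, fell by 0.19 (8.80 ± 0.13 against 8.99 ± 0.09, adjusted p = 0.00236 by limma), by 0.20 on chip 3 and by 0.19 between the other chips. Its median deposited signals were 477 in ethanol-treated mice and 467 in controls, so the fall is that of the normalized values. Necap1, which binds the AP2 ear, and Sgip1 passed only by a probe that was not the brightest. Their called probes rose by 0.33 and 0.21 (adjusted p = 0.00643 and 0.006 by limma), and their brightest differed by 0.16 and 0.11 (adjusted p = 0.0783 and 0.117 by limma). On chip 3 the called probes differed by 0.14 and -0.01 and the brightest by -0.21 and -0.14. Sgip1 was named after its values were seen.

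In curvature and fission, 1 of 7 tested genes passed, and its probes disagreed. Bin1, also called amphiphysin II, rose by 0.25 with its dim probe ILMN_2701365 (adjusted p = 0.000242 by limma), or by 0.53 with normexp, whereas its bright probe ILMN_2946466 differed by -0.11 (adjusted p = 0.27 by limma). The bright probe was also lower at odd positions, by 0.27 (adjusted p = 0.00396 by limma), as the Amph probe was. The endophilins Sh3gl1, Sh3gl2 and Sh3gl3 did not pass. Sh3gl1 and Sh3gl3 differed by -0.01 and -0.04. Sh3gl2 was higher by 0.10 with its brightest probe (adjusted p = 0.0353 by limma). With ILMN_2701695 and ILMN_2701701 it was higher by 0.32 and 0.22 (adjusted p = 0.014 and 0.0853 by limma). On chip 3 the brightest Sh3gl2 probe differed by 0.12, and these other probes by -0.10 and -0.16.

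In uncoating, kinases and lipids, 2 of 5 tested genes were higher. Hspa8, the chaperone that strips clathrin from vesicles, rose by 0.58 (13.36 ± 0.27, n = 20, against 12.78 ± 0.52, n = 12, SD, adjusted p = 0.00152 by limma). The difference was 0.07 on chip 3 and 0.82 between chips 1 and 2 and chip 4, and the level was lower at odd positions by 0.39 (adjusted p = 0.0081 by limma). Aak1, the kinase that phosphorylates the μ subunit of AP2, rose by 0.16 (adjusted p = 0.00408 by limma) but differed by -0.03 on chip 3. The control median was exceeded in 20 of 20 ethanol-treated mice. Dnajc6, the auxilin that brings Hspa8 to the coat, differed by 0.13 with its brightest probe (adjusted p = 0.0159 by limma). With its other tested probe, ILMN_2733605, the difference was 0.01 (adjusted p = 0.878 by limma).

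Of 10 tested genes of the related adaptors AP1 and AP3, which act at the Golgi and endosomes, 0 were higher and 1 lower. Ap3b2, the neuronal β subunit of AP3, fell by 0.23 (10.50 ± 0.12, n = 20, against 10.73 ± 0.14, n = 12, SD, adjusted p = 0.000759 by limma). It fell by 0.35 on chip 3 and by 0.17 between the other chips. Median deposited signals of Ap3b2 were nearly equal, 1533 in ethanol-treated mice and 1551 in controls. With median scaling 1 of the 42 genes passed (Bin1). With chip as a fixed block 0 passed, and Ap3b2 had an adjusted p of 0.02 by limma. Without control mouse C66, an alternative chosen after seeing the data, 5 genes passed (Ap3b2, Arrb2, Bin1, Epn2 and Hspa8).

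**Figure D5:**
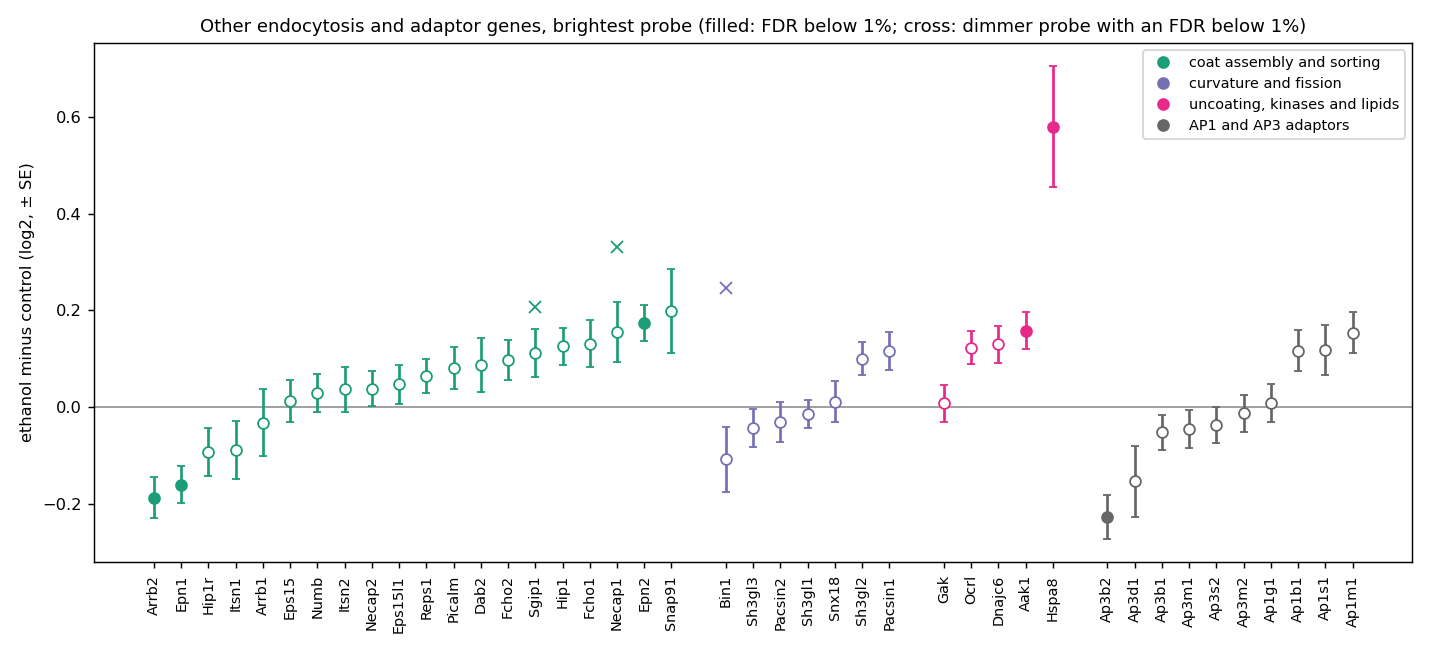
Ethanol minus control difference (log2, ± SE) of the 42 other endocytosis and adaptor genes by their brightest probe, grouped in 4 lists, with filled points for an FDR below 1% and crosses for dimmer probes past it. Hspa8 (0.58) is the highest point and Ap3b2 (-0.23) the lowest.

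Marker lists of cell types were set beside the ethanol contrast. By the brightest tested probe at an FDR below 1%, 1 of 4 neuronal markers was lower (Slc17a7), 1 of 5 astrocyte markers was higher (Aqp4), and 0 of 8 oligodendrocyte, 0 of 7 microglial, 0 of 4 endothelial and 0 of 4 olfactory bulb markers passed by limma. The neuronal list as a whole had a median difference of 0.13, opposite in sign to Slc17a7. The neuronal score ranged from -0.54 to 1.49 with a median of 0.02 in ethanol-treated mice and from -0.90 to 0.60 with a median of -0.34 in controls. The astrocyte score ranged from -0.75 to 1.20 with a median of 0.19, against -1.43 to 0.68 with a median of -0.345 in controls. The microglial score ranged from -0.97 to 0.99 with a median of -0.30, against -0.70 to 0.79 with a median of 0.39. The score medians of ethanol-treated mice and controls were -0.26 and 0.14 for oligodendrocytes, 0.13 and -0.305 for endothelium and 0.14 and -0.26 for the olfactory bulb. For every list the ranges of both groups overlapped. Their part in the differences of the AP2 genes was not tested.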

How the data were processed

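The authors deposited bead summary values of 25697 probes on 32 arrays, not normalized. The intensities deposited are mean bead signals on a linear scale, beside which the authors deposited a detection p-value from the negative controls and, as other values, each probe's bead count and standard error. The background correction is not given in the sources used here. All columns were matched to mice through the labels, and 0 were left over. The deposited columns hold no comparisons by the authors.

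After the Methods, a variance-stabilizing transform computed from the bead errors and quantile normalization gave log2 values. The package that the Methods name was not used, so values can differ slightly. The 10187 probes (7926 genes) detected at p below 0.01 on 24 or more arrays were compared by limma 3.58.1 in R 4.3.3 with Benjamini-Hochberg adjustment over all of them, and called at an FDR below 1%. No covariate was used, except chip as a block for odd against even positions. The fits were tested on simulated data. Figures were made in Python 3.11.15 with matplotlib 3.10.9. Precision is limited by the number of arrays, and every array is a separate mouse.

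The genes, lists and comparisons were chosen with earlier results of these data known. Named are every listed gene by every probe, up to 4 rising and 4 falling pathway genes among those called, each by its brightest probe, and the 5 genes most like the Ap2b1 probe. Sgip1, Dnajc6, the endophilins and the dimmer probes of Necap1, Sgip1, Bin1, Epn2, Sh3gl2 and Dnajc6 were named beyond this rule, after their values were seen. A called gene has any probe past the threshold. The result of 1 marker gene is not reported here. Marker scores are means of values centred and scaled over arrays. The alternatives changed the scale (log2 of the signal, normexp with an offset of 16, or median scaling), the probes (every probe, or those detected throughout), the model (a fixed or random block for chip, position, array weights), the FDR (10%) or the arrays left out. Probe sequences are those of the deposited annotation. Its genome build and its exons are not given in the sources used here, so no coordinates are printed.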

Additional observations from a re-analysis of the deposited data

Results flagged for a closer look

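Each tested probe was examined for a single array apart from the others in each chip and group, 70 sets in all, of which 4 had such an array, and chance gives about 1 in 20. ILMN_3147944 of Ap2b1 read 10.09 in ethanol-treated mouse A46 of chip 3, above the next value of 9.75. ILMN_1259631 of Ap2b1 read 8.05 in ethanol-treated mouse A47 of chip 3, next to 7.998. Cltb (ILMN_2791059) read 9.51 in ethanol-treated mouse A44 of chip 2, next to 9.36. Amph (ILMN_2842843) read 10.89 in control mouse C56 of chip 3, below the next value of 10.99.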

How the results depend on the processing

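The AP2 and clathrin genes were chosen on the ethanol contrast, so their counts in it are a description and say nothing of stability. Of the 14 tested probes, 2 were called in the ethanol contrast. This count was 1 with median scaling (Ap2b1), 1 with chip as a fixed block (Ap2a1) and 1 with chip as a random block (Ap2b1). It was 0 with chip as a fixed block and position. It was 2 in the other 6 fits: log2 of the signal, normexp, all probes, probes detected on all arrays, position as a covariate and array weights, and also without control mouse C66. The 9 pathway genes became 1 with median scaling, 0 with chip as a fixed block, 1 with chip as a random block and 0 with chip and position. They became 5 without control mouse C66 (chosen after seeing the data) and 18 at an FDR below 10%. No share of all tested genes at that FDR stands beside the 18, so nothing is read from this rise. The 2 probes called between odd and even positions became 0 with median scaling, 1 over all probes and 1 without a chip term. Between chips 1 and 2 the count stayed 0 with log2 of the signal, median scaling and all probes. Counts of the 14 tested probes at an FDR below 10% are left out here for the contrasts where they rose. The reason is that no share over all probes stands beside them. For odd against even positions, the probes that passed only that FDR are named above, also without such a share. In both comparisons of chip 3 with other chips the count was 0 under each alternative run, leaving out each chip 3 array included. Median scaling moved the median of all probes by 0.13 between controls of chips 3 and 4 and by less than that in the other comparisons. Over the whole table of 10187 tested probes, the ethanol contrast called 366 higher and 476 lower probes, and 57 and 36 with median scaling. It called 13 and 8 with chip as a fixed block, 25 and 54 with chip as a random block, and 2 and 0 with position added to the fixed block. With log2 of the signal the counts were 375 and 464, with normexp 345 and 422, with position as a covariate 503 and 480, and with array weights 384 and 477. They were 261 and 360 over all 25697 probes, 308 and 453 over the 8608 probes detected on all arrays, and 238 and 338 without control mouse C66. The causes of these changes were not tested. With chip as a fixed block the called probes of Aak1 and Sgip1 changed sign, to -0.034 and -0.014, and with position added Aak1 was -0.067. No paired analysis was possible because no mouse number occurs in both groups. Signals close to background limit what can be said of Dnm1, of Epn1, of 4 of the 5 Ap2b1 probes, of 1 of the 2 Clta probes and of 2 of the 3 Amph probes.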
